A study of Bos grunniens with 6 samples.

Results

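Narrow internal-exon m6A peaks are the listed peaks of cattle-yak testis that were annotated to an exon that is neither the first nor the last of a transcript with at least 3 exons, and that span at most 1000 bp on the genome. By this rule 2565 of the 16186 listed peaks were chosen, which is 15.8% of the list (95% Wilson interval 15.3% to 16.4%). They lay on 1954 of the 8986 genes with a peak (21.7%). The same rule without the width limit gave 7713 internal-exon peaks, of which 33.3% were narrow (32.2% to 34.3%) and 5148 were wide. All samples came from 1 group of 3 cattle-yaks, hybrids of cattle and yak. The animals, named TES5, TES6 and TES7, were 5 years old, and their testes were obtained by castration. Each animal gave an immunoprecipitated (IP) library, enriched for m6A with an antibody, and an input library of the same RNA without the enrichment, 6 libraries in all. The peak list is 1 list for the group and gives no value per animal, so no spread between animals can be given for a peak, and the Wilson intervals cover counting error only. Expression is given as FPKM, a level scaled by transcript length and library size, in each input library.

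m6A is a methyl mark on adenosine that a writer complex containing METTL3 and METTL14 places on RNA as it is made. Reader proteins of the YTH family bind the mark and direct splicing, export, translation or decay of the RNA, and the demethylases FTO and ALKBH5 can remove it. In many mammalian tissues the mark is concentrated around stop codons, in 3′ UTRs and in unusually long internal exons. In the testis, writers and readers of the mark are known to be needed for the germ line to pass through meiosis.

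The narrow internal-exon peaks had a median width of 349 bp, with quartiles of 201 and 589 bp. The narrowest spanned 143 bp, in ENSBGRG00000015002 on chromosome 22 from 49579789 to 49579931 (build LU_Bosgru_v3.0, used for all positions). The next were of 145 bp, in STUB1, a ubiquitin ligase that works with chaperones, and in HSPBP1, a partner of the chaperone HSP70. At the limit stood the peaks of NCAPH2, a condensin II subunit, in exon 13 of 21, and of P4HTM, a membrane-bound prolyl hydroxylase, in exon 2 of 6, both 1000 bp wide. Just outside it were the peaks of TSHZ1 with 1001 bp, ACSL5 with 1005 bp and CASZ1 with 1007 bp. For comparison, the median width was 4664 bp for the wide internal-exon peaks, 296 bp for the 540 narrow peaks of first exons and 250 bp for the 1066 narrow peaks of last exons.

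**Figure D1:**
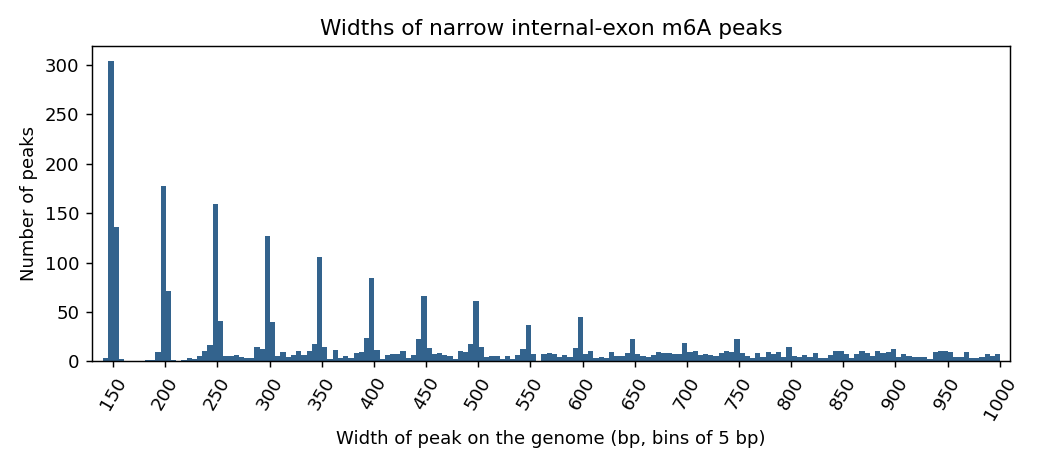
Number of narrow internal-exon peaks (vertical axis) by width on the genome in bp (horizontal axis, bins of 5 bp). The widths gather at multiples of 50 bp, most of all at 150 bp, and the steps fade towards 1000 bp.

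Widths of these peaks fell on a grid. In all, 46.7% of them (44.7% to 48.6%) were within 1 bp of a multiple of 50, where 6% would be so if all remainders were equally frequent. The share was 81.0% up to 200 bp, 53.3% from 201 to 400 bp, 28.8% from 401 to 600 bp and 14.1% above 600 bp. Exactly 150 bp was the width of 176 peaks and 151 bp that of 125. Narrow peaks of first exons (50.0%) and last exons (51.2%) lay on the grid about as often, whereas 6.002% of the wide internal-exon peaks did. Where the edges of methylated RNA lie within such steps was not tested.

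Within transcripts, narrow peaks with a listed exon number were internal less often than the number of exons would give. Of the 4171 narrow exon peaks in transcripts of at least 3 exons, 61.5% (60.01% to 63.0%) were internal, against 74.4% if every exon of each transcript were equally likely. Among the 5987 wide exon peaks, 86.0% (85.1% to 86.8%) were internal, against 82.3%. The transcripts with a narrow internal-exon peak had a median of 13 exons and a span of 39672 bp, and those with a wide one 17 exons and 60590 bp. Peaks annotated to a 3′ UTR or 5′ UTR have no listed exon number and are not among these peaks. The even shares still count every exon in full, so observed and even shares are not of like sets. Exon length was not used here, so a longer exon and a more strongly methylated exon cannot be told apart.

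By listed exon number, the next-to-last exon held more narrow peaks than an even spread over internal exons would place there. An exon peak has 1 listed exon, also where it reaches others, and a peak annotated to a UTR has none. The narrow peaks of SYCP1 (exon 32 of 33), POMT1 (20 of 21) and FCGRT (7 of 8), for example, reached the end of the listed transcript. How many others did so was not counted. Of the 2565 peaks, 21.4% (19.9% to 23.1%) lay in the next-to-last exon, against 17.1%, and 18.9% (17.4% to 20.5%) lay in the second exon, against the same 17.1%. Wide internal-exon peaks were in the next-to-last exon in 10.2% (9.36% to 11.0%), against 11.3%, and in the second exon in 12.6% (11.7% to 13.5%), against 11.3%. When the internal exons of each transcript were split into 3 parts of equal length in exon number, the narrow peaks were found in the 5′ part in 32.3%, in the middle part in 31.3% and in the 3′ part in 36.4% (34.5% to 38.3%), where an even spread gives 32.6%, 34.8% and 32.6%. In the wide peaks the 3′ part held 31.7% (30.4% to 33.0%), against 33.2%. Wide peaks that span several exons also have 1 listed exon. Those of RIF1 in exon 36 of 39, FANCI in 36 of 38 and SYCP2 in 27 of 29, for example, reached the end of the listed transcript. The part of this numbering in the narrow and wide shares was not tested.

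**Figure D2:**
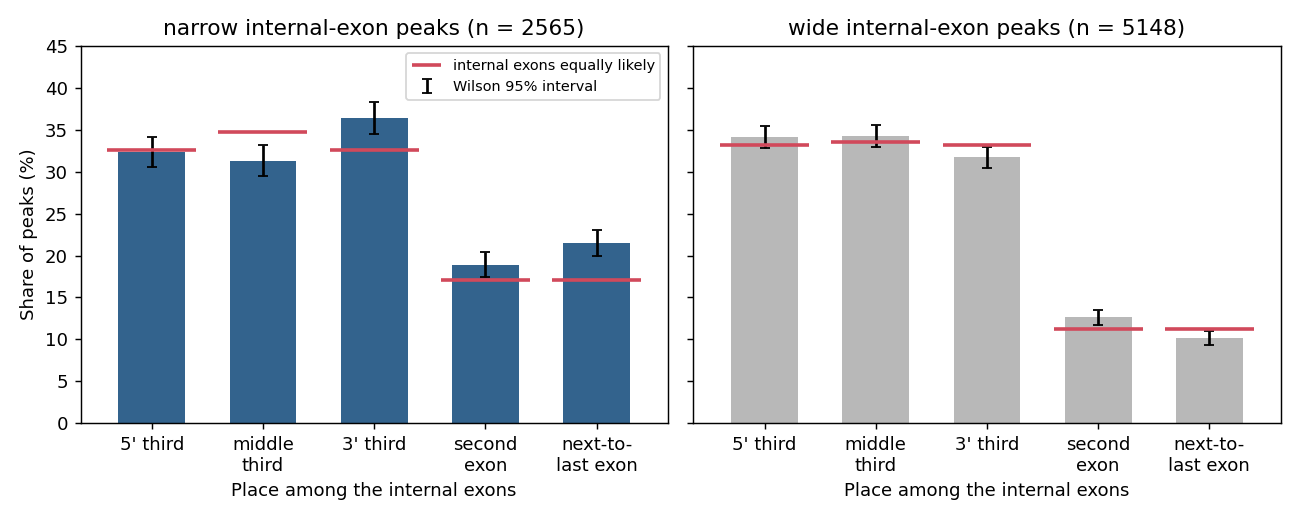
Share of narrow (left, n = 2565) and wide (right, n = 5148) internal-exon peaks in % (vertical axis) by their place among the internal exons (horizontal axis), with Wilson 95% intervals as black bars and the share for equally likely internal exons as red lines. In the next-to-last exon the narrow peaks stand above the red line (21.4% against 17.1%) and the wide peaks below it (10.2% against 11.3%).

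This excess at the next-to-last exon was much the same in points whatever the number of exons, while the even share became smaller. The observed share was 53.9% against 49.4% in transcripts of 3 to 6 exons, 18.6% against 14.4% with 7 to 12, 11.3% against 6.71% with 13 to 24 and 6.96% (5.15% to 9.33%) against 3.01% with 25 or more exons, which are differences of 4.44, 4.17, 4.59 and 3.95 points. As ratios of the observed to the even share these are 1.09, 1.29, 1.68 and 2.31, and the wide peaks gave ratios of 1.03, 0.789, 0.800 and 0.935 in the same order. The share in the next-to-last exon was 22.8% for genes on the plus strand and 20.1% for genes on the minus strand. In 5682 of 5682 pairs of peaks in different exons of 1 transcript, the exon numbers had the order of the distances to the transcript start, so the numbers run from 5′ to 3′ on both strands.

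Most genes had a single narrow internal-exon peak. Of the 1954 genes, 1536 (78.6%) had 1, 304 had 2, 69 had 3, 28 had 4 and 17 had at least 5, and the 418 genes with 2 or more held 1029 (40.1%) of the peaks. For 745 genes (38.1%) these were the only peaks in the list, and 726 (37.2%) also had a wide internal-exon peak. A gene with more peaks of any kind has more chances to hold one of this class, which made up 15.8% of all peaks, so a rise comes from counting alone. Carriers were 12.6% of the genes with 1 peak, 23.2% with 2, 37.4% with 3, 53.1% with 4 or 5 and 71.6% with 6 or more. BRCA2, a protein of DNA break repair, and BSN, a scaffold of the presynaptic zone, had the most, with 9 each. KMT2C, a histone H3 lysine 4 methyltransferase, had 8, and MACF1, which links microtubules to actin, had 7, as did the gene listed as SLC26A11.

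In 198 of the 2305 exons concerned, 2 or more narrow peaks lay in the same exon, and these exons held 458 peaks (17.9%). Among narrow peaks of last exons 27.2% (24.6% to 29.95%) shared the exon with another of their kind, and among wide internal-exon peaks 0.622%. The narrow peaks of a shared exon together reached over a median of 1090.5 bp and at most 5046 bp. Peaks in a shared exon were on the grid of 50 bp more often than those alone in an exon, with 72.3% (68.0% to 76.2%) against 41.1% (39.0% to 43.2%). A wide peak was listed in 28 of the 198 exons as well. Another peak of the gene, of any class, lay within 200 bp of 21.2% (19.6% to 22.8%) of the narrow internal-exon peaks and of 10.7% (9.85% to 11.5%) of the wide ones.

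Exons with at least 4 narrow peaks numbered 13. In exon 38 of 103 of MACF1, on chromosome 3 from 116370506 to 116375551, 5 peaks covered 2952 of 5046 bp. In exon 10 of 26 of BRCA2, on chromosome 15 from 53799075 to 53802567, 5 peaks of 600, 150, 150, 400 and 151 bp covered 1451 of 3493 bp, and a wide peak of 6212 bp in the same exon began at 53802667. The other BRCA2 peaks were 201 and 251 bp wide in exon 9, 250 bp in exon 13 and 452 bp in exon 21. A run of 4 peaks was also found in exon 13 of 32 of REV3L, the catalytic subunit of the translesion polymerase zeta, in exon 4 of 18 of ALMS1, a protein of the centrosome and the base of cilia, and in exon 8 of 9 of CASP8AP2. Among the rest were exon 24 of 25 of EVPL, an envelope protein of stratified epithelia, and exon 6 of 13 of BSN, whose other peaks lay in exons 4, 7 and 8. Mean FPKM was 0.202 for EVPL and 1.97 for BSN, against 13.8 for MACF1 and 2.44 for BRCA2. Whether 1 such row of peaks is 1 methylated stretch or several was not tested.

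**Figure D3:**
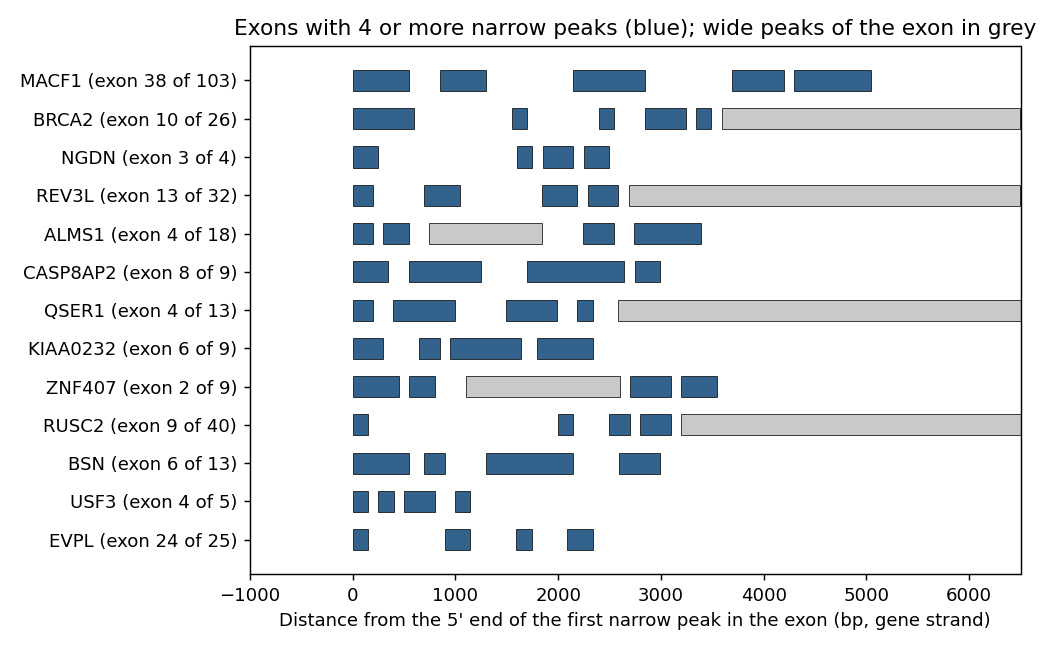
The 13 exons with at least 4 narrow peaks, 1 per line, with the distance in bp along the gene strand from the 5′ end of the first narrow peak (horizontal axis). Blue boxes are narrow peaks and grey boxes are wide peaks of the same exon, cut off at the right edge. The 5 boxes of MACF1 reach over 5046 bp, and in BRCA2 the 5 narrow boxes are followed by a wide peak.

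Genes with a narrow internal-exon peak had a lower median level than other genes with a peak in every animal, by a difference that 3 animals cannot take past a threshold of 0.05. Their median FPKM was 5.34 in TES5, 5.60 in TES6 and 5.71 in TES7 (1856 genes with an FPKM value), against 7.74, 7.84 and 7.81 for the 6919 other genes with a peak. The 2 ranges did not overlap. On the log2(FPKM + 1) scale the difference of the medians was -0.46, -0.42 and -0.39, with a mean of -0.43 ± 0.04 (SD, n = 3), and lower in 3 of 3 animals. The exact two-sided sign-flip permutation test gave p = 0.25, the smallest value that 3 animals allow. Against genes with a wide internal-exon peak and no narrow one the difference was -0.56 ± 0.02, against genes with a narrow first-exon peak -0.13 ± 0.07, and against genes with a narrow last-exon peak 0.16 ± 0.06 (each SD, n = 3, exact p = 0.25). The 745 genes with no other peak were lower still, at a median FPKM of 4.05, 4.01 and 3.87 in the 696 with a value. For 98 of the 1954 genes no FPKM was listed.

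Seen from the peaks, the narrow share of internal-exon peaks was lower on genes with higher expression, up to an FPKM of about 10. Among peaks on genes with a mean FPKM under 1, 60.5% (56.2% to 64.6%) were narrow. The share was 46.2% from 1 to 2, 35.9% from 2 to 5, 27.5% from 5 to 10 and 23.96% (21.9% to 26.1%) from 10 to 20, and then 26.4% from 20 to 50 and 29.7% (24.6% to 35.5%) above. Between genes under 2 and genes at 10 or more the gap was 27.0 percentage points, 52.3% of 1177 peaks against 25.3% of 2857. It was 26.2, 26.8 and 25.5 points when the FPKM of TES5, TES6 or TES7 alone was used. In transcripts of 3 to 6 exons the shares were 71.0% against 38.3%, with 7 to 12 exons 52.2% against 26.6%, with 13 to 24 exons 42.6% against 22.4% and with 25 or more exons 44.8% against 22.7%. The narrow peaks themselves had a median width of 249 bp on genes under 2, 357 bp from 2 to 10 and 448 bp at 10 or more. Low coverage and short methylated stretches cannot be told apart here, since the list gives no read numbers.

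**Figure D4:**
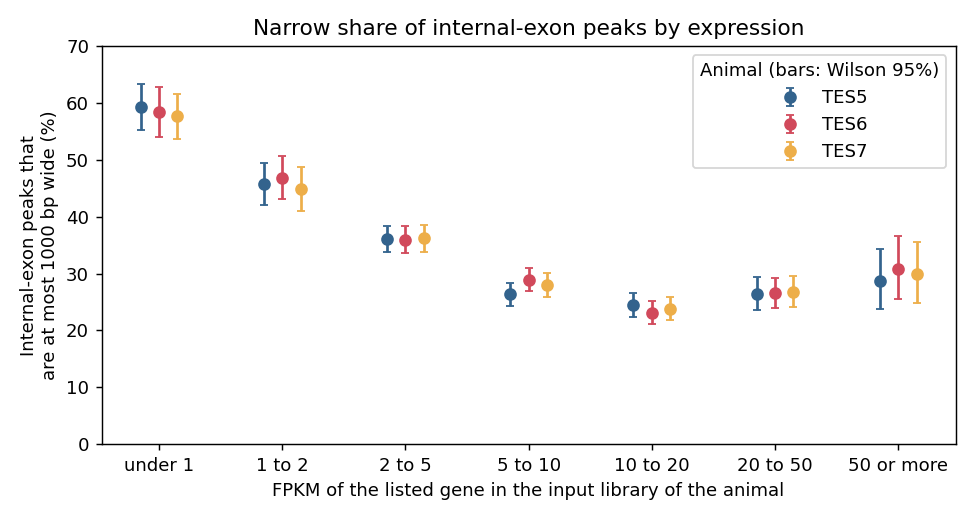
Share of internal-exon peaks that are at most 1000 bp wide, in % (vertical axis), by the FPKM of the gene in the input library of each animal (horizontal axis, 7 classes), with Wilson 95% bars. The 3 animals lie together in every class, and with the mean of the animals the share goes from 60.5% under 1 to 23.96% from 10 to 20.

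Gene structure moved with the narrow share as well. When the internal-exon peaks were ordered by transcript span per exon and cut into 5 classes of equal size, 49.3% (46.8% to 51.8%) were narrow in the class with the least span (up to 1483 bp), and 26.9% to 32.0% in the others. Chromosome 29, where the median span per exon was 1234 bp, had the highest share of the assembled chromosomes with 54.7% (46.4% to 62.7%), followed by chromosome 20 with 44.9% and chromosome 19 with 43.1%, and chromosome 25 had the lowest with 24.5%. The width of a peak counts the introns it spans, and the part of intron length in these shares was not tested.

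The gene lists are read against all genes with a peak and against genes with as many peaks. By gene symbol, 1806 of 7802 symbols with a peak (23.1%) carried a narrow internal-exon peak, and symbols are given here as the list has them. In a list of Fanconi anaemia and homologous recombination genes, 9 of 20 with a peak did so (45%), with a median of 2 peaks per gene, where 23.2% of all genes with 2 peaks did, and 22 of their 52 peaks were narrow internal-exon peaks. They were BRCA2 (9 of its 11 peaks), BLM, a helicase that dissolves recombination intermediates (3 of 4), ATR, the kinase activated by stalled forks (2 of 2), FANCE of the Fanconi core complex (2 of 2), SLX4, a scaffold of nucleases (2 of 3), FANCM, a DNA translocase (1 of 1), FANCI, which is ubiquitinated with FANCD2 (1 of 3), BARD1, the partner of BRCA1 (1 of 2), and TOPBP1, an activator of ATR (1 of 4). Among the 25 genes that the list assigns to the KEGG Fanconi anemia pathway, 13 carried one (52.0%), also at a median of 2 peaks per gene. BRCA2 had an FPKM of 2.20 in TES5, 2.52 in TES6 and 2.61 in TES7, and FANCM 1.92, 2.43 and 2.54. Both were lowest in TES5, whereas SLX4 was lowest in TES7, at 15.6, 12.6 and 8.33 in the same order.

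Of 28 chromatin enzymes with a peak, 14 had one (50.0%), at a median of 4 peaks per gene, where 53.1% of all genes with 4 or 5 peaks did. KMT2B, another histone H3 lysine 4 methyltransferase, had all of its 5 peaks in this class, in exons 3, 18, 29 and 32 of 38. KMT2C had 8 of 11, 2 of them in exon 39 and 2 in exon 41 of 62. EP300, a histone acetyltransferase, and TET3, a 5-methylcytosine oxidase, had 3 each. The FPKM of KMT2B was 17.0, 23.3 and 21.0 in TES5, TES6 and TES7, and that of KMT2C 7.70, 8.98 and 9.21. In 12 of the 14 enzymes, whose median mean FPKM was 6.38, TES5 was the lowest animal. Among the 611 genes with a narrow internal-exon peak and a mean FPKM of at least 10 it was lowest in 280, a set of higher expression than most of these enzymes. By list, TES5 was lowest in 7 of 9 carriers among ubiquitin ligases and deubiquitinases and 7 of 9 with a known long internal exon. It was lowest in 7 of 10 cytoskeletal and centrosome carriers, but in 3 of 9 of the Fanconi list and 1 of 6 meiotic identifiers. The lists share genes, such as ATRX and TET1, so these counts are not independent. Of 12 genes known for a long internal exon, 9 carried a narrow internal-exon peak (75%, median 4 peaks per gene, where 53.1% of all genes with 4 or 5 peaks did), and 25 of their 62 peaks were of this class (40.3%, against 15.8% of all peaks). Besides BRCA2 and FANCM these were SON, MAP2, ZFHX3, RIF1, TET1, ATRX and TEX15, while BRCA1, PRDM2 and CENPF had other peaks only.

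Notch pathway genes carried them in 11 of 23 cases (47.8%, median 2 peaks per gene, where 23.2% of all genes with 2 peaks did), among them the receptors NOTCH1 and NOTCH2, the coactivators MAML1, MAML2 and MAML3, and the acetyltransferases EP300 and CREBBP. In the list of cytoskeletal linkers and centrosome proteins 10 of 18 did (55.6%, median 6 peaks per gene, where 71.6% of all genes with 6 or more did), with MACF1 as the leading gene and 1 of 18 peaks in SYNE2, which ties the nucleus to the cytoskeleton. Ubiquitin ligases and deubiquitinases had them in 9 of 28 genes (32.1%, median 3, where 37.4% of all genes with 3 peaks did), including 4 of 8 peaks of BIRC6 and 3 of 5 of USP34. The remaining KEGG pathways lay between 15.8% for apoptosis (6 of 38) and 28.9% for MAPK signaling (22 of 76), apart from homologous recombination with 5 of 12. Apoptosis and MAPK signaling had a median of 1 peak per gene, where 12.6% of all genes with 1 peak did. Homologous recombination had a median of 2, where 23.2% of all genes with 2 peaks did. Steroid hormone biosynthesis had 1 of 5, CYP2E1.

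Germline genes came closer to the share over all symbols. Of 17 meiotic chromosome genes with a peak, 5 had a narrow internal-exon peak (29.4%, against 23.1% of all symbols), and of 11 piRNA and germline RNA genes 3 (27.3%). TEX15, needed for meiotic break repair and for piRNA-directed silencing, had 3 of its 7 peaks in exon 2 of 11, of 998, 849 and 350 bp. SYCP1, the transverse filament protein of the synaptonemal complex, had 1 in exon 32 of 33, and SYCP2, of its lateral elements, had 1 of 150 bp in exon 26 of 29. MEI4, a factor in making meiotic DNA breaks, had 1 in exon 3 of 6. The symbol HFM1, of a crossover helicase, was listed for 2 identifiers with 1 each. These had 38 and 6 exons and a mean FPKM of 1.82 and 15.8, and whether both are this gene was not tested. TDRD6, of the chromatoid body, had 2 in exon 3 of 6, and TDRD7 and TEX14, the latter of the bridges between germ cells, had 1 each. FPKM of TDRD6 was 2.72, 2.35 and 1.25 in TES5, TES6 and TES7, that of TDRD7 15.03, 14.2 and 10.5, and that of TEX14 13.3, 11.9 and 10.5, so all 3 were lowest in TES7. TEX15 instead was highest in TES7, at 4.42, 3.87 and 5.16.

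In the m6A machinery 2 of 14 genes with a peak carried a narrow internal-exon peak (14.3%, median 2 peaks per gene, where 23.2% of all genes with 2 peaks did). VIRMA, the scaffold of the writer complex, had 4 of its 6 peaks in this class, in exons 8, 9, 13 and 21 of 24, of 795, 200, 447 and 699 bp. YTHDC1, the nuclear reader, had 1 of 2, a peak of 524 bp in exon 2 of 16. VIRMA had an FPKM of 24.3, 24.2 and 27.1 in TES5, TES6 and TES7, and YTHDC1 one of 20.8, 20.8 and 22.1. The SD over the animals was 1.64 and 0.736. METTL14, METTL16, RBM15, RBM15B, ZC3H13, FTO, ALKBH5, YTHDF2, YTHDC2 and IGF2BP1, IGF2BP2 and IGF2BP3 had peaks of other classes only. Besides the m6A machinery the study names other genes for these samples, and 5 of 9 with a peak had one (VGLL3, DONSON, SYNE2, SYCP2 and FZD8). That is 55.6%, at a median of 3 peaks per gene, where 37.4% of all genes with 3 peaks did. The list was chosen by the study on the same libraries, and SYNE2 was named there for having the most peaks.

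Markers of the cell types of the testis were few among the genes with a peak, and their counts are read against the 23.1% of all symbols. The median was 1 peak per gene for Sertoli cell and peritubular myoid markers, 1.5 for spermatogonia markers and 3 for Leydig cell and spermatocyte markers. Of all genes with 1, 2 and 3 peaks, 12.6%, 23.2% and 37.4% carried a narrow internal-exon peak. None of 5 Sertoli cell markers with a peak carried a narrow internal-exon peak (SOX9, WT1, FSHR, INHBB and DHH), nor did the Leydig cell marker STAR, and of 5 peritubular myoid markers MYH11 and TAGLN did, with 1 peak each. None of 4 spermatogonia markers did, and SYCP1 and SYCP2 of 5 spermatocyte markers did. Only markers listed with a peak were matched to FPKM, so the sums leave out the other markers of each list. The summed FPKM of the matched spermatocyte markers (5 of 8 symbols, 10 identifiers) was 71.0 in TES5, 48.2 in TES6 and 52.5 in TES7. A single DMC1 identifier, at 21.4, 8.72 and 15.4, made up much of the difference between TES5 and TES6, and by identifier TES7 was the lowest animal in 5, TES6 in 3 and TES5 in 1, with 1 at 0 in all animals. The sum for the spermatogonia markers (4 of 10) was 24.3, 25.7 and 33.3, that of the peritubular myoid markers (5 of 5) 364, 415 and 395, and that of the Sertoli cell markers (5 of 10) 109, 112 and 109. Of 10 spermatid markers 0 were listed with a peak, so their FPKM was not matched and that cell type was not analysed here. In bulk tissue, fewer cells of a type and less RNA per cell cannot be told apart.

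Among the genes with a narrow internal-exon peak and a mean FPKM of at least 10, the 5 with the largest coefficient of variation were all lowest in TES7. RDM1, a protein with an RNA recognition motif linked to DNA repair, had 20.005, 14.003 and 4.52 in TES5, TES6 and TES7. ODF2, of the outer dense fibres of the sperm tail, had 44.0, 30.6 and 17.5, and AGBL5, which trims glutamate from tubulin, had 25.6, 20.2 and 9.48. FOXJ2, a forkhead transcription factor, had 34.2, 36.5 and 14.8, and POMT1, a protein O-mannosyltransferase, 26.8, 18.9 and 11.6. RDM1 had 3 narrow internal-exon peaks, of 350 and 650 bp in exon 7 and 694 bp in exon 9 of 11, and the other 4 genes had 1 each. Of 27 such genes with a coefficient over 25%, TES7 was the lowest animal in 15, TES5 in 10 and TES6 in 2, and of 160 other genes with a peak past that level TES7 was the lowest in 85. The part of the cell types in these levels was not tested. Over the 611 genes the median coefficient was 8.77%, against 9.40% over 2876 other genes with a peak.

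**Figure D5:**
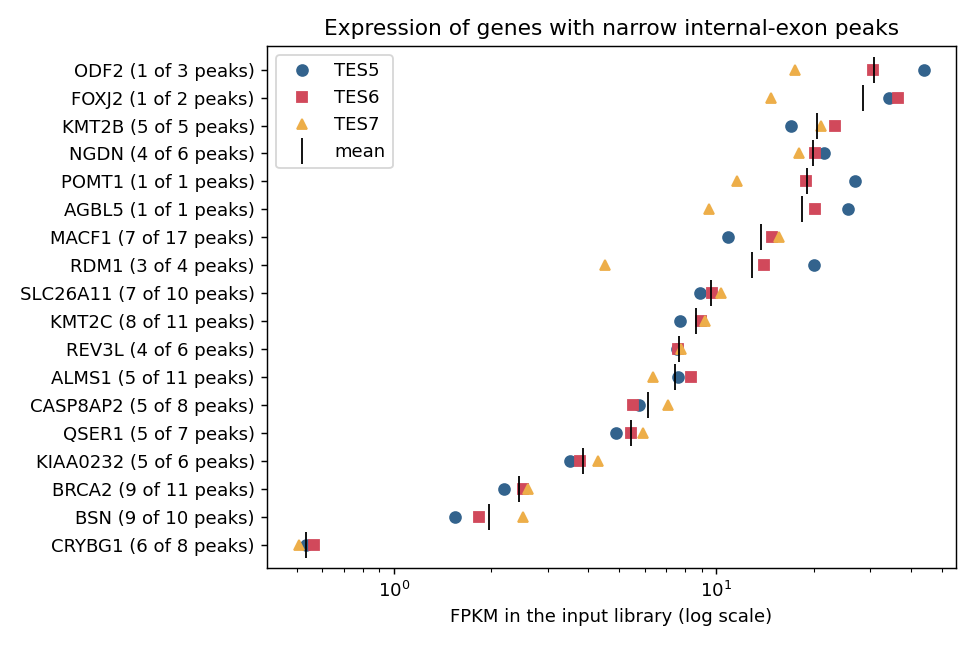
FPKM in the input library of each animal (horizontal axis, log scale) for the genes with an FPKM value among those with the most narrow internal-exon peaks, those of the 8 leading shared exons and the 5 genes with the largest coefficient of variation. Black ticks are means, and the numbers beside each symbol are narrow internal-exon peaks of all peaks. RDM1, ODF2, AGBL5, FOXJ2 and POMT1 lie lowest in TES7, whereas BRCA2 stays between 2.20 and 2.61.

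The highest expressed carriers were the genes listed as TMEM215, with an FPKM of 915, 669 and 888 in TES5, TES6 and TES7, and DENND4C, with 478, 457 and 454. They were followed by the genes listed as FCGRT, GZMM, HSP90AA1, ZWILCH, EIF4G2 and PTPN11, whose means ran from 240 to 372. All 8 had 1 narrow internal-exon peak. The transcripts of these peaks had 6 exons for DENND4C, 10 for ZWILCH and 6 for PTPN11. Symbols are as listed, and whether each identifier is the gene of that name was not tested. At the other end, the 5 carriers with the lowest mean above 0 were MYL12A, SLC5A10, AARS1, SLC9A3 and TAS1R1, at means of 0.0122 to 0.0599. In 3 of these 5 the annotated exon belonged to another gene identifier or to none, which was so for 65 of all 2565 peaks (2.53%), for 5.56% of the 306 on genes with a mean FPKM under 1 and for 2.23% of the 2111 on genes at 1 or more.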

How the data were processed

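MeRIP-seq libraries (IP and input) of testis from 3 cattle-yaks were used. Per the study's methods, the authors trimmed reads with Trimmomatic, removed ribosomal RNA with SortMeRNA, aligned to LU_Bosgru_v3.0 with HISAT2 2.0.4 and retained uniquely mapped reads. Peaks were called with MeTDiff, with the input as background, and annotated with ChIPseeker. The deposited peak list holds positions, annotation and genes, without scores. The deposited FPKM values cover 20953 genes in the 3 input libraries, and the program that made them is not given in the sources used here. They are not read counts, and the depth behind a peak or a gene is unknown.

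From the list, peaks were chosen by annotation, exon number and width, and joined to FPKM by gene identifier. Shares have Wilson 95% intervals. The even share at a position is the mean over peaks of 1 divided by the number of internal exons. Medians of log2(FPKM + 1) were compared within each animal by an exact sign-flip permutation test. The scripts ran in Python 3.11.15 with SciPy 1.17.1, pandas 2.3.3, matplotlib 3.10.9 and numpy 2.4.6, and the procedures were tested on simulated data.

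The peaks and gene lists were chosen with earlier results of these data known. Genes named were those with the most peaks or the most peaks in 1 exon, the 8 highest and 5 lowest in FPKM, the 5 most variable, those at the width limit, and carriers from gene lists and KEGG pathways. The classes of FPKM, the grid of 50 bp, the limit of 25% for the coefficient of variation, the 5 classes of span per exon the distance of 200 bp between peaks and the classes of peak number were chosen after values were seen. Alternatives were other width and exon limits, merged or unique intervals, minimum FPKM, another pseudocount, counting by symbol, rescaled libraries and each animal left out. No genome sequence was used here, so motifs and exon lengths were not analysed.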

Additional observations from a re-analysis of the deposited data

How the results depend on the processing

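The share in the 5′ part, 32.3% against an even 32.6%, passed to the other side of the even share at 500 bp (33.2% against 32.6%) and with FPKM at least 1 (33.3% against 32.6%). No paired analysis was possible because no IP library has values of its own, as the peak list is 1 list for the group and FPKM was listed for input libraries only. The number of peaks ranged from 1788 at a limit of 500 bp to 3646 at 2000 bp, against 2565. The median width moved to 355 bp with peaks of the class within 100 bp merged, 250 bp with a limit of 500 bp, 530 bp with a limit of 2000 bp and 394 bp with genes of FPKM at least 1. Genes with a single peak became 81.1% with merging, 80.6% at 500 bp and 75.7% at 2000 bp. The narrow share of internal-exon peaks became 23.2% at 500 bp, 47.3% at 2000 bp, 31.7% with at least 5 exons and 29.9% with FPKM at least 1. The share in the second exon became 16.7% at 2000 bp and 12.8% with at least 5 exons, and that in the next-to-last exon 15.7% with at least 5 exons (even share 10.8%), as these limits themselves change which peaks are counted. The gap of the narrow share by expression was 22.7 points in transcripts of at least 7 exons, an alternative chosen after the data were seen. The difference of the median log2 FPKM was -0.48 with a pseudocount of 0.1, -0.31 with FPKM at least 1, and -0.44 to -0.41 with 1 animal left out, each on the same side of 0. The motif alternatives were not run for want of a genome sequence. FPKM without read numbers and a list without scores limit what can be said of single peaks.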
